A study of Mus musculus with 12 samples.

Results

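Small RNA was sequenced from a pulldown directed at Gas5 in cultured mouse hippocampal neurons, in 3 libraries named antisense and 3 named sense, which are 6 of the 12 samples of the study. The 6 libraries were chosen by their titles, and their count table held 137960 rows. Of these, 1964 named mature miRNAs and 135996 were transcript identifiers, whose reads may be fragments of longer RNAs. The comparison asked which small RNAs differed between the sense and the antisense pulldown. No miRNA passed the test, 16 transcript rows did, and the miRNA shares of the groups overlapped. All 6 samples came from primary hippocampal neurons taken at postnatal day 0 (P0) and kept for 16 days in vitro (DIV 16), with no genotype, strain or drug named, so the pulldown is what the labels give as the difference between the groups. The other 6 samples are total RNA libraries of the same pulldown.

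Capture and control are not told apart in the labels, and neither is it stated if sense and antisense describe a probe or a bait; no input library was used here. Nothing states that replicate libraries were made from separate cultures, so the p-values cover only library-to-library spread, which may be technical. In the total RNA libraries, Gas5 took 9.71% to 14.2% of the counts in the antisense group and 32.7% to 57.1% in the sense group. In the small RNA table the deposited files do not pair transcript identifiers with genes, and the rows of Gas5 were not identified here.

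Gas5 is a long noncoding RNA whose introns hold small nucleolar RNAs and whose spliced transcript has been described as a binding partner of miRNAs. A mature miRNA is cut from one arm of a hairpin, named 5p or 3p, loaded into an Argonaute protein and guided to target RNAs mainly by its seed, the bases 2 to 8 from its 5′ end. Members of a family such as let-7, which is abundant in differentiated neurons and is held back in stem cells by Lin28, share a seed and differ at a few other bases.

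The let-7 family is shown first because it took the largest part of the miRNA counts and because its members differ by single bases, so that reads can be divided between them. Sequences are from RefSeq on GRCm38.p6, 5′ to 3′, with the seed in capitals.
let-7a-5p: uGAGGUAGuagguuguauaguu
let-7b-5p: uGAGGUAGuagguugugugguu
let-7c-5p: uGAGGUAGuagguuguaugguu
let-7d-5p: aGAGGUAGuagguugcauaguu
let-7e-5p: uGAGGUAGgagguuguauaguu
let-7f-5p: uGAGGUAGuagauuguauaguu
miR-98-5p: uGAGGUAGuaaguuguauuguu
Counted from the 5′ end and against let-7a-5p, let-7b-5p carries A17G and A19G, let-7c-5p A19G, let-7d-5p U1A and U16C, let-7e-5p U9G, let-7f-5p G12A, and miR-98-5p G11A and A19U. Positions given here are those of the mature arms. Those of let-7a (chr13:48538239-48538260), let-7f (chr13:48537889-48537910) and let-7d (chr13:48536078-48536099) lie side by side on the minus strand. A second let-7a hairpin is listed with its 3p arm, let-7a-2-3p, at chr9:41536777-41536797 on the plus strand. A second copy of let-7f (chrX:151912353-151912374) and miR-98 (chrX:151913229-151913250) lie on the plus strand within Huwe1, and let-7b (chr15:85707325-85707346) and a copy of let-7c (chr15:85706616-85706637) on the plus strand within Lncppara. The copy of let-7c on another chromosome (chr16:77599672-77599693) overlapped no gene among those looked up, and let-7e (chr17:17830366-17830387) lies within Spaca6, both on the plus strand. Genes with names starting in Mir, miRNA host genes included, were left out of this lookup.

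The miRNAs with the smallest p in each direction are shown next, except miR-98-5p, which is printed above and has the let-7 seed, and miR-328-3p. They are followed by miR-9-5p, the second most abundant miRNA. None of the sequences shown next shares its seed with let-7.
miR-365-3p: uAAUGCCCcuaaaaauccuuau
miR-148a-3p: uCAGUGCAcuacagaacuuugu
miR-138-5p: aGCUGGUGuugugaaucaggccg
miR-29a-3p: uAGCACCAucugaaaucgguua
miR-1247-5p: aCCCGUCCcguucguccccgga
miR-6238: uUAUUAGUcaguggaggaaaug
miR-128-3p: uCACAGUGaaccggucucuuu
miR-449a-5p: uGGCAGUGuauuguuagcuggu
miR-9-5p: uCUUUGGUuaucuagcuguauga
Of these, miR-148a lies at chr6:51269829-51269850 on the minus strand within Gm38821, and miR-29a at chr6:31062673-31062694 on the minus strand in no other gene, genes named Mir left aside. The 5p arm of miR-1247 lies at chr12:110278094-110278115 on the minus strand, inside the imprinted Dlk1-Dio3 region. The copies of miR-128 lie within R3hdm1 (chr1:128202404-128202424, plus strand) and within Arpp21 (chr9:112118644-112118664, minus strand). One copy of miR-138 lies at chr9:122682898-122682920 on the plus strand. Of the 381 miRNA rows above 0 in any library, 334 matched a RefSeq sequence, and these held 98.01% of the miRNA counts; miR-328-3p, also among the smallest p, was not among them.

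The libraries held between 3527528 and 4448328 estimated counts, of which 193501 to 258237 fell in miRNA rows. The miRNA share was 6.36%, 6.46% and 5.20% in antisense libraries 1 to 3 and 5.31%, 5.54% and 5.96% in sense libraries 1 to 3. The groups overlapped, and the widest exact binomial 95% interval of a library ran only from 6.33% to 6.38%, so the spread between libraries was far wider than the counting error. The means were 6.003% ± 0.70 (SD, n = 3) for antisense and 5.60% ± 0.33 (SD, n = 3) for sense, a difference of -0.40 percentage points (exact permutation test, two-sided, p = 0.4, where 3 against 3 libraries cannot go below 0.1). Without antisense library 3, the lowest of its group, the difference was -0.80 percentage points.

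Transcript rows held the rest. A single transcript row took 32.6%, 32.9% and 32.8% of the counts in the antisense libraries and 34.9%, 32.2% and 32.9% in the sense libraries (exact permutation test, two-sided, p = 0.8). The 10 most abundant transcript rows together took 44.0% to 46.9% of a library, and their log2 fold changes, sense minus antisense, lay between 0.02 and 0.13, each with an adjusted p of 0.9987 in edgeR's quasi-likelihood test. The most abundant transcript rows thus stood at near-equal levels in both pulldowns.

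**Figure D1:**
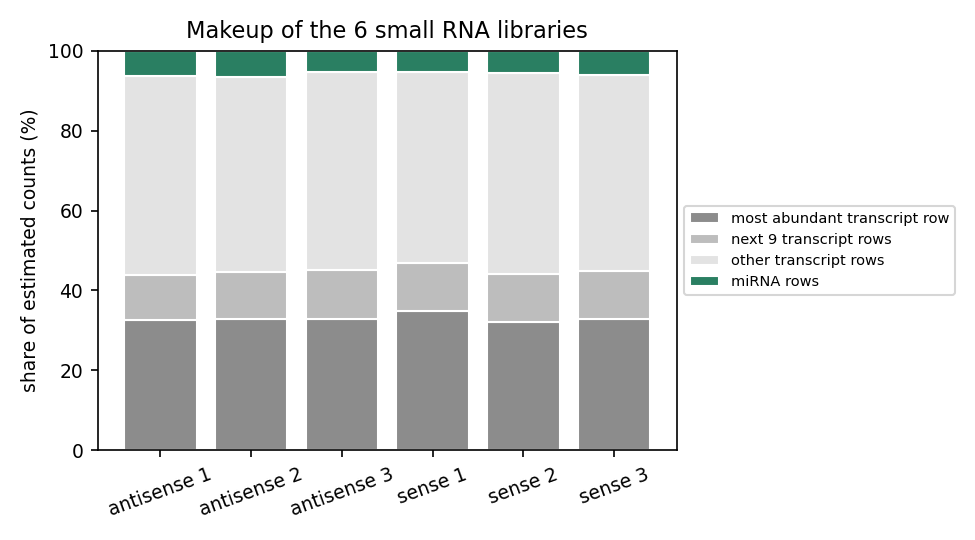
Share of the estimated counts (%, vertical axis) in miRNA rows, in the most abundant transcript row, in the next 9 and in all other transcript rows, as stacked bars, 1 bar for each of the 6 small RNA libraries. The miRNA part is between 5.20% and 6.46% and the most abundant transcript row between 32.2% and 34.9% in all 6 bars.

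A few miRNAs filled the miRNA rows. Between 243 and 274 miRNA rows were above 0 in a library, 381 in any, and the 5 most abundant miRNAs took 61.9% to 67.3% of a library's miRNA counts. Levels of miRNAs below are CPM of the miRNA counts, scaled by library composition, and differences are log2 fold changes of sense minus antisense with a standard error (SE). Levels of different miRNAs are set side by side without a correction for length. Among the most abundant, the listed sequences ran from 19 bases for miR-6538 to 26 for miR-6240. Ligation during library preparation can also favour some sequences, so ranks between miRNAs are approximate.

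Agreement between libraries of 1 group was uneven. Over miRNA rows, the chi-square per degree of freedom, which is near 1 where only counting error separates a pair, was 4.31 between antisense libraries 1 and 2 and 8.04 between sense libraries 2 and 3. It was 70.7 and 63.3 between antisense library 3 and the others of its group, and 59.6 and 49.0 between sense library 1 and the others of its group. Antisense library 3 and sense library 1 thus each stood apart, and counts are also given without them.

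The let-7 family led all miRNAs. Rows with its seed took 58.1%, 57.1% and 47.2% of the miRNA counts in antisense libraries 1 to 3 and 55.6%, 48.3% and 51.6% in sense libraries 1 to 3. The groups overlapped, with antisense library 3 the lowest of the 6, and the summed seed differed by -0.24 (SE 0.20, 95% interval -0.68 to 0.19; adjusted p = 0.724, edgeR quasi-likelihood). Of its 9 listed 5p members, 7 were tested, and let-7g-5p and let-7i-5p were listed at 0 in all 6 libraries.

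The most abundant miRNA, let-7c-5p, stood at 260221, 266956 and 167558 CPM in the antisense libraries and at 233065, 173482 and 191300 CPM in the sense libraries. These overlapped, and the difference was -0.22 (95% interval -0.67 to 0.24). The next member, let-7a-5p, was at 132836, 134464 and 106664 CPM in antisense and 96711, 96439 and 98279 CPM in sense. All 3 sense values of let-7a-5p lay below the lowest antisense value, yet the difference of -0.36 (SE 0.16; adjusted p = 0.402 by edgeR with Benjamini-Hochberg adjustment) did not pass.

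In the same way let-7f-5p was at 97613, 101977 and 102216 CPM in antisense and 60003, 81635 and 85202 CPM in sense. The sense values again lay below all antisense values, and the difference of -0.41 (SE 0.18; edgeR adjusted p = 0.382) did not pass. Levels of miR-98-5p, which shares the seed, were 6204, 6267 and 7166 CPM in antisense and 3880, 4912 and 5335 CPM in sense. The sense libraries were once more the lower, with a difference of -0.47 (SE 0.18; edgeR adjusted p = 0.354).

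The other 3 members overlapped between groups. Antisense library 3 had the lowest let-7b-5p of the 6, at 37430 CPM against 83191 and 82521 CPM in the other antisense libraries and 86225, 53032 and 56616 CPM in the sense libraries, with a difference of -0.05 (SE 0.29). For let-7d-5p and let-7e-5p the differences were -0.18 (SE 0.20) and -0.17 (SE 0.25). Counting the 3p rows and the less usual names, 10 rows of the let-7 list were tested and 0 passed; 3 were lower at an unadjusted p under 0.05, against 9 lower among all 158 miRNAs tested, and the median difference was -0.18 against 0.02 over all of them.

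Members of the family did not keep a fixed ratio to each other between libraries. Set against let-7f-5p, let-7b-5p was at 0.852, 0.809 and 0.366 in antisense libraries 1 to 3 and at 1.44, 0.650 and 0.665 in sense libraries 1 to 3, a 3.92-fold spread between the highest and the lowest library. The same ratio spread 2.91-fold for let-7e-5p, 2.37-fold for let-7c-5p, 2.21-fold for let-7d-5p, 1.54-fold for let-7a-5p and 1.17-fold for miR-98-5p. In each of these but miR-98-5p, antisense library 3 was the lowest and sense library 1 the highest, so the extremes of these ratios were the same pair of libraries.

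The order of those spreads followed the base composition of the sequences printed above, with 10 G or C bases in let-7b-5p, 9 in let-7c-5p, let-7d-5p and let-7e-5p, 8 in let-7a-5p, and 7 in let-7f-5p and miR-98-5p. Over the 44 miRNAs with a sequence and a mean of 1000 CPM or more, a library's deviation from the mean of all 6 correlated with GC percent at r = -0.288, -0.265 and 0.114 in antisense libraries 1 to 3 and at r = 0.248, 0.253 and -0.185 in sense libraries 1 to 3. Over all 139 tested miRNAs with a sequence, r was 0.132 in antisense library 3 and -0.059 in sense library 1, within the range of -0.261 to 0.202 over the other 4 libraries. These are weak correlations over miRNAs that share a library, and all the let-7 ratios share the same denominator, let-7f-5p. Whether base composition had a part in the let-7 ratios was not tested.

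**Figure D2:**
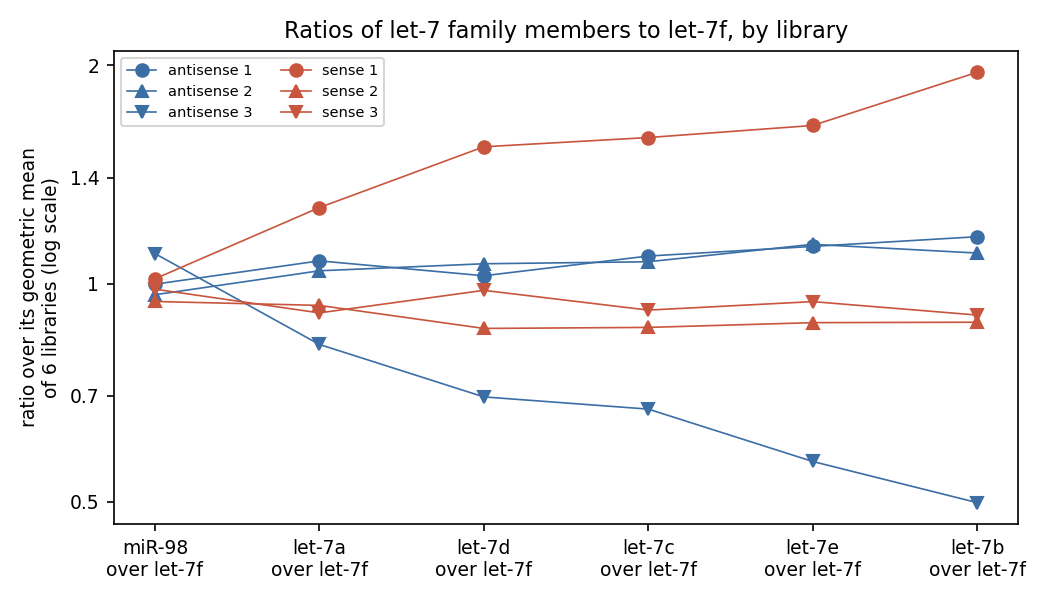
Ratio of 6 let-7 family members to let-7f-5p in each library, divided by the geometric mean of that ratio over the 6 libraries (vertical axis, log scale), with members on the horizontal axis in order of their spread and 1 line per library. Sense 1 and antisense 3 part by 3.92-fold at let-7b, while at miR-98 the 6 libraries lie within 1.17-fold.

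Among the other abundant miRNAs, the brain-enriched miR-9 and miR-128 came from families known for roles in neuronal differentiation. Levels of miR-9-5p were 164153, 167105 and 187171 CPM in antisense and 122735, 173659 and 165892 CPM in sense. They overlapped, with sense library 1 the lowest, and the difference was -0.17 (SE 0.18). The opposite arm, miR-9-3p, differed by -0.01 (SE 0.16), and the ratio of 5p to 3p was 5.87, 5.61 and 6.10 in antisense and 4.69, 5.81 and 5.20 in sense.

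Of the 15 most abundant miRNAs, miR-128-3p had the smallest p. It was at 25079, 27951 and 19573 CPM in antisense and at 15163, 18613 and 14998 CPM in sense. No sense library reached the lowest antisense library, and the difference was -0.57 (SE 0.19, 95% interval -0.99 to -0.16; adjusted p = 0.280, edgeR quasi-likelihood), which did not pass. In the authors' deposited table the same miRNA had a log2 fold change of -0.60 and an adjusted p of 0.375.

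The remaining names among the 15 most abundant were miR-6538, miR-26a-5p, miR-125b-5p, miR-92b-3p and miR-6240, with differences of -0.09, -0.23, 0.02, 0.08 and 0.03. Their groups overlapped in each case. The listed sequence of miR-6538 is 19 bases long and 94.7% G or C.

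**Figure D3:**
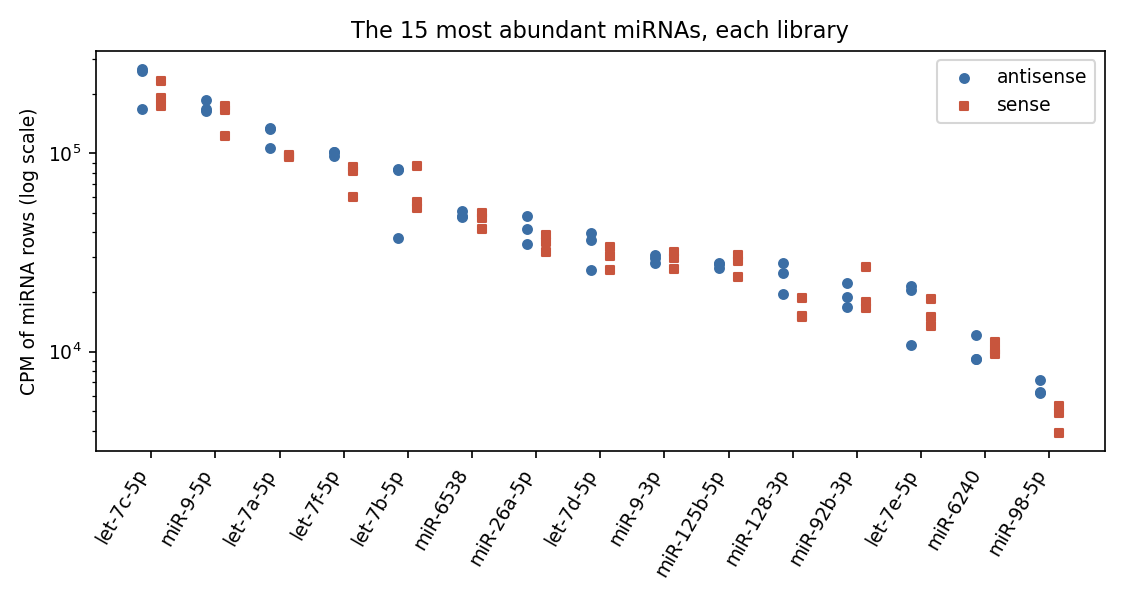
CPM (log scale, vertical axis) of the 15 miRNAs with the highest mean, in order, with 1 circle per antisense library and 1 square per sense library. The groups overlap for let-7c-5p, miR-9-5p and let-7b-5p, and the squares lie below all circles for let-7a-5p, let-7f-5p, miR-128-3p and miR-98-5p, none of which passed the test.

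Over all miRNAs, 158 had enough counts for the test, and 0 (0.0%) passed at a false discovery rate of 0.05 in edgeR's quasi-likelihood test; the smallest adjusted p was 0.280. At an unadjusted p under 0.05 there were 18 (11.4%), 9 higher and 9 lower in sense, against 13 with DESeq2, which also called 0. The authors' deposited table lists 0 miRNAs at an adjusted p under 0.05, 14 at an unadjusted p under 0.05 and a smallest adjusted p of 0.375, and its direction matched for 154 of the 158. That comparison is of the same libraries, so the match in direction is not independent evidence. Groups did not overlap for 12 miRNAs higher in sense (7.59%) and 13 lower (8.23%).

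The intervals show what a difference could still be. For 100 of the 158 miRNAs the 95% interval lay within 2-fold in either direction, and so it did for 50 of the 51 at a mean of 1000 CPM or more, miR-328-3p being the exception. The median difference over the 158 was 0.02, and the middle of the distribution ran from -0.21 to 0.27. Scaling by library totals alone moved that median to 0.20 and a fit on all rows of the table moved it to 0.16, so the miRNAs with a difference near 0 do not have a settled direction.

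Leaving out sense library 1, alone or with antisense library 3, made calls. Without sense library 1, 2 miRNAs passed by edgeR, both higher in sense: miR-148a-3p (adjusted p = 0.0325) and miR-375-5p (adjusted p = 0.00186). The latter was at 0 counts in all antisense libraries and in sense library 1, and at 54.4 and 82.4 estimated counts in sense libraries 2 and 3. It was looked up after its values were seen and did not meet the count minimum over all 6. Without sense library 1, miR-375-5p met that minimum only through sense libraries 2 and 3, so its call rests on the values that admitted it. Without antisense library 3 and sense library 1 together, 15 passed, 4 higher and 11 lower, among the lower let-7a-5p to let-7e-5p (-0.49 to -0.65) and miR-128-3p (-0.71). Those libraries were left out after the data were seen, for their distance from their own group in the same counts, which by construction leaves the most alike pair on each side, so these p-values are too small.

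Of the 5 miRNAs with the smallest p in the higher direction, none passed. Levels of miR-365-3p, made from a hairpin cluster with miR-193, were 19.6, 57.6 and 55.2 CPM in antisense and 177, 117 and 120 CPM in sense. The groups did not overlap, and the difference was 1.62 (SE 0.42, 95% interval 0.70 to 2.54; edgeR adjusted p = 0.280) at a mean of 90.9 CPM.

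For miR-148a-3p, of the miR-148 and miR-152 family, the antisense libraries were at 332, 416 and 441 CPM and the sense libraries at 509, 723 and 795 CPM. All sense libraries were higher, with a difference of 0.77 (SE 0.22; edgeR adjusted p = 0.280). For miR-29a-3p, known to rise as neurons mature, the antisense libraries were at 1115, 1214 and 1173 CPM and the sense libraries at 1600, 1710 and 1513 CPM. The groups were tight and apart, and the difference was 0.46 (SE 0.17; edgeR adjusted p = 0.354).

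The neuronal miR-138-5p, a regulator of dendritic spine size, was near the limit of detection, with 0, 39.9 and 0 CPM in antisense and 125, 79.1 and 63.9 CPM in sense. The antisense values rest on 9 counts in a single library, and the difference of 2.61 (SE 0.82) did not pass (edgeR adjusted p = 0.280). The last of the 5, miR-328-3p, was at 1344, 1032 and 923 CPM in antisense and 4044, 1786 and 1182 CPM in sense. Its groups overlapped, and the difference of 1.09 (SE 0.37) was 0.40 without sense library 1.

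Of the 5 in the lower direction, miR-128-3p and miR-98-5p are given above. Levels of miR-1247-5p, of the Dlk1-Dio3 region, were 1349, 1067 and 1454 CPM in antisense and 423, 991 and 643 CPM in sense. The sense libraries were lower but sense library 2 came close to antisense library 2, and the difference was -0.91 (SE 0.28; edgeR adjusted p = 0.280). For miR-6238 the antisense libraries were at 3329, 3016 and 3275 CPM and the sense libraries at 1927, 2385 and 2336 CPM, with no overlap and a difference of -0.53 (SE 0.17; edgeR adjusted p = 0.280). For miR-449a-5p, which has the seed of the miR-34 family, the groups overlapped and the difference was -0.50 (SE 0.20). The more abundant miR-34c-5p of that family, looked up after its values were seen, differed by -0.03 (SE 0.19).

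**Figure D4:**
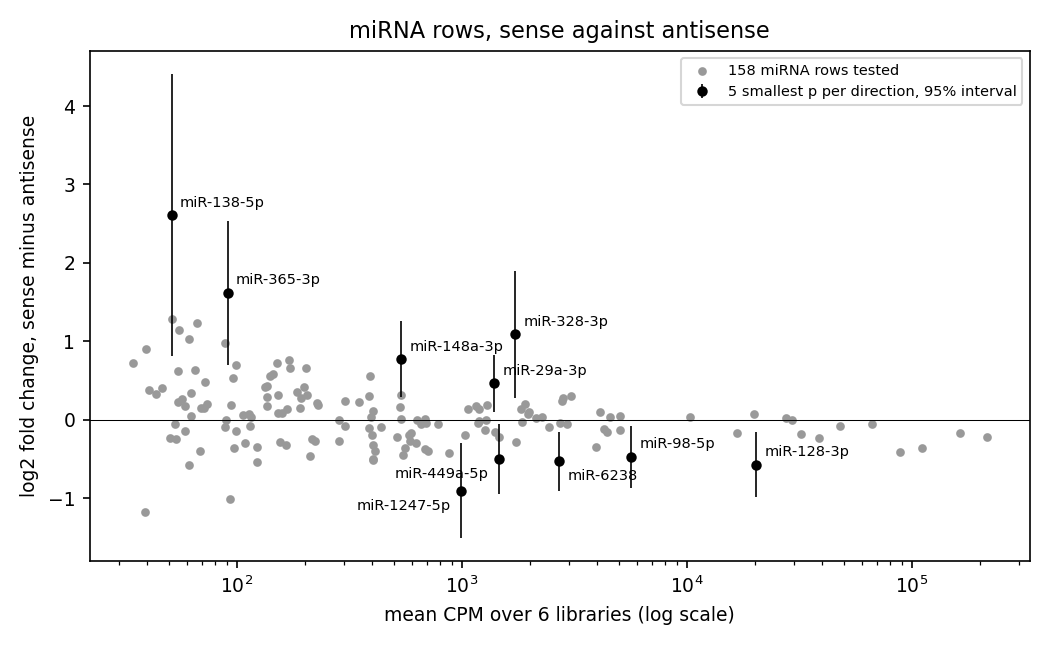
Log2 fold change, sense minus antisense, against mean CPM over the 6 libraries (log scale) for the 158 miRNAs tested, with the 5 smallest p in each direction in black with their 95% intervals. Points lie close to 0 at high CPM and spread wider at low CPM, and no miRNA passed the test.

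Lists of miRNAs by cell type and pathway are described by counts, and 0 members passed in any of the 11. Neuron-enriched names had 9 of 24 rows tested, and their median difference was -0.06, from -0.57 for miR-128-3p to 2.61 for miR-138-5p; miR-124-3p and miR-218-5p differed by -0.13 and 0.24. Their summed level was 226939 to 251831 CPM in antisense and 174852 to 234768 CPM in sense, most of it miR-9. The list of miRNAs regulated by neuronal activity had 4 tested rows with a median of 0.01: miR-132-3p and miR-212-5p, made from 1 transcript that CREB induces, differed by -0.04 and -0.08, and miR-485-5p by 0.31.

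Markers of other cells were few. All 12 rows of the microglia and blood list, which include miR-142, miR-223 and miR-451a, were at 0 in all 6 libraries. Of 20 rows for vascular and mesenchymal cells, 3 were above 0 and 0 were tested. The astrocyte list had 1 tested row, miR-21a-5p, at 2001 to 2321 CPM in antisense and 1957 to 2308 CPM in sense, and the oligodendrocyte list 1, miR-219a-1-3p, at 31.0 to 85.3 CPM and 56.5 to 67.9 CPM.

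These zeros need care, because miRNAs that most cells carry were also listed at 0 in all 6 libraries, among them miR-22-3p, miR-30a-5p, miR-103-3p and miR-26b-5p, which were looked up after their values were seen. For miR-30a the opposite arm, miR-30a-3p, held 114 to 157 estimated counts in every library while the 5p arm was listed at 0, and miR-30e showed the same split with 34.5 to 75.04 counts for its 3p arm. Of 124 tested rows with both arms in the table, 52 had an opposite arm at 0 in all 6 libraries. A listed 0 in these files is therefore not read as a missing miRNA.

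Of miRNAs that have been described as partners of Gas5, 22 rows were in the table, 16 were at 0 in all 6 libraries and 2 were tested. Levels of miR-21a-5p, the best known of them, were 2034, 2321 and 2001 CPM in antisense and 1957, 2174 and 2308 CPM in sense. The libraries of both groups covered one range, and the difference was 0.02 (SE 0.17, 95% interval -0.36 to 0.39). The other, miR-137-3p, a neuronal miRNA, differed by -0.28 (SE 0.23).

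Proliferation-linked miRNAs of the miR-17-92 cluster and its paralogs had 4 tested rows of 28 and a median of -0.04; the most abundant, miR-93-5p, miR-25-3p and miR-20a-5p, differed by -0.22, 0.13 and -0.46. The sensory miR-183, miR-96 and miR-182 cluster had 1, miR-182-5p, at 0.00. The miR-30 and miR-26 group had 6 with a median of 0.00, where miR-30d-5p and miR-30c-5p differed by -0.01 and 0.01. In the Dlk1-Dio3 region, between positions 109452485 and 110281097 of chromosome 12, an imprinted domain with a large maternally expressed miRNA cluster, 31 miRNAs were tested, 19 higher and 12 lower in sense, with 0 passing and a median of 0.09.

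Summing miRNAs that share a seed and matched a RefSeq sequence gave 119 families. Rows without a matched sequence were left out, so a sum can lack members of its family. Of the 119, 0 passed in edgeR's test and 15 (12.6%) were under an unadjusted p of 0.05, 10 higher and 5 lower. DESeq2 gave 0 and 9. The smallest adjusted p was 0.169. For the seed AGCACCA, of miR-29a-3p and miR-29c-3p, the share of miRNA counts was 0.102%, 0.109% and 0.122% in antisense and 0.172%, 0.189% and 0.166% in sense. All sense libraries were higher, with a difference of 0.50 (SE 0.15; edgeR adjusted p = 0.169). The seed ACAUUCA of the miR-181 family, with 4 members above 0, differed by 0.07 (SE 0.14), and AUUGCAC of miR-92b-3p, miR-25-3p and miR-32-5p by 0.10 (SE 0.20).

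Transcript rows were the only ones with calls. Of 8129 tested, 9 were higher in sense (0.111%) and 7 lower (0.0861%) by edgeR at a false discovery rate of 0.05, against 124 with DESeq2, which held all 16, and 261 were under an unadjusted p of 0.05. Rows are single transcripts and the files do not give their genes, so the 2 with the smallest p in each direction are named by identifier; they were picked after their values were seen.

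The clearest difference was ENSMUST00000135267.8. It held 6, 10 and 8 counts in antisense libraries 1 to 3 and 39708, 54595 and 45740 counts in sense libraries 1 to 3, or 1.77, 2.62 and 1.99 CPM of all rows against 10529, 12363 and 11858 CPM. The sense values were within a narrow range and the antisense values near 0, with a difference of 12.38 (SE 0.23; edgeR adjusted p = 1.33e-05). It was rank 11 of all tested transcript rows by mean CPM, took 1.11% of the sense counts, and passed in all 14 alternatives, with a highest adjusted p of 0.00444.

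The next higher row, ENSMUST00000134947.8, was at 0 in all antisense libraries and at 901, 1271 and 1154 CPM in sense, at least 4180-fold higher when the antisense group is set to a floor of 3 counts in all (edgeR adjusted p = 0.00699). The call was lost without sense library 3 (adjusted p = 0.0672 by edgeR) and with the replicate number as a block (adjusted p = 0.401 by edgeR). With all antisense libraries at 0, no alternative could have turned the direction, so only the p-value could depend on the fit.

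In the other direction, ENSMUST00000167688.2 stood at 982, 1126 and 1561 CPM in antisense and 10.1, 3.62 and 5.70 CPM in sense, a difference of -7.57 (SE 0.47; edgeR adjusted p = 0.00699). The call was lost by edgeR without antisense library 1 (adjusted p = 0.0611), antisense library 2 (0.0554) or sense library 3 (0.0672), and with the block (0.289). ENSMUST00000159663.8 stood at 693, 886 and 519 CPM in antisense and at 0 in all sense libraries, at least 2795-fold lower in sense (edgeR adjusted p = 0.0133). It was lost by edgeR without antisense library 1 (adjusted p = 0.113), 2 (0.0762) or 3 (0.0538), without sense library 3 (0.0672), without antisense library 3 and sense library 1 together (0.0507), and with the block (0.402).

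Of the 16 rows called, 5 higher and 6 lower had all libraries of the other group at 0. The unnamed ones were at least 80.4-fold to 3491-fold higher and at least 54.0-fold to 868-fold lower. Rows at 0 in a whole group met the count minimum only through the group where they were high, so filter and test drew on the same values. The count of calls moved with the libraries: 2 without antisense library 1, 2 without antisense library 2, 3 without antisense library 3, 8 without sense library 2 and 1 without sense library 3, against 18 without sense library 1. Without antisense library 3 and sense library 1 together it was 5.

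All-or-none patterns were not limited to the comparison of groups. Among the 8129 tested transcript rows, 42 (0.517%) were at 0 in all antisense libraries with at least 10 counts in every sense library, and 28 (0.344%) showed the reverse. These rows, too, were admitted to the test only by the group where they were high. Within a single group, 358 rows (4.40%) had a library at 0 and another at 50 counts or more, and 2097 (25.8%) had a library at 0. These rules ask for 0 in a single library and not in a whole group, so the counts are not on 1 scale with those between groups. Of the 158 tested miRNAs, 5 had a library at 0 and 0 had such a split within a group. The untested miR-375-5p did have one, at 0, 54.4 and 82.4 estimated counts in sense libraries 1 to 3. The estimated counts are mostly not whole, since reads that fit several transcripts are divided among them, and the part of that division in the 16 calls was not tested.

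**Figure D5:**
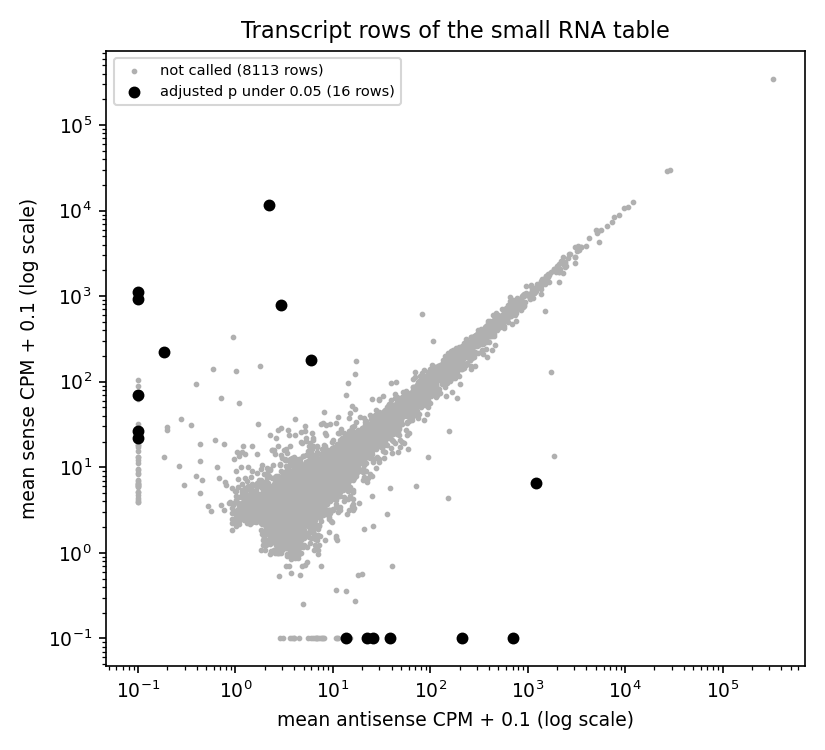
Mean CPM in sense against mean CPM in antisense for the 8129 transcript rows tested, both plus 0.1 and on log scales, with the 16 rows passing edgeR's test in black. Most rows lie along the diagonal, and the called rows lie far from it, 11 of them on an axis because all libraries of 1 group are at 0.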

How the data were processed

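Small RNA from 3 sense and 3 antisense pulldown libraries was compared; groups come from the titles. The authors deposited estimated counts, of which 96.7% of the values above 0 are not whole. The submitters' processing notes name Salmon, DESeq and GRCm38. For the index, trimming, kit and strand setting, a statement is not given in the sources used here. The authors' deposited comparison table of miRNAs lists p-values, a test score, log2 fold changes and a normalised signal averaged over libraries; it was read side by side only. The number of unused columns with sample values was 0.

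Counts were rounded to whole numbers, filtered by filterByExpr (minimum count 10), scaled by TMM and tested with edgeR 4.0.16 (glmQLFit, glmQLFTest; R 4.3.3, limma 3.58.1), two-sided, sense minus antisense, with Benjamini-Hochberg adjustment at 0.05. miRNAs were fitted with totals over miRNA rows and transcripts with all rows of the table. Seeds were fitted after summing rows with the same bases 2 to 8, among rows with a matched sequence only. SEs are the log2 fold change over the square root of F. The miRNA fit and the fit on all rows were also run on simulated counts, and the seed fit was not. The simulated spread was smaller than that of the fit on all rows, so that run does not bear on the transcript calls. DESeq2 1.42.0, other scalings and filters, a replicate block and leaving out each library were alternatives. Depth was 3527528 to 4448328 counts per library. Intervals of shares are exact Clopper-Pearson at 95%; these and the floor of 3 counts over a group reflect counting error alone, because reads that carry no molecular identifier can be copies of 1 molecule.

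The text names the 15 most abundant miRNAs, the 5 smallest p per direction, as none passed, up to 3 tested members of each list by mean CPM, and the leading seeds; names outside the rule are marked as chosen after their values were seen. For transcripts the rule named 10 per direction, and 2 are printed because no table gives their genes. The members, lists and rules were chosen with earlier results of these data known. Same-numbered libraries did not deviate together (r over miRNA rows of -0.04, -0.13 and 0.03). With 3 libraries a group this cannot exclude pairing, which the labels do not state, and the samples were treated as unpaired.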

Additional observations from a re-analysis of the deposited data

How the results depend on the processing

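The count of miRNAs passing in edgeR was 0 under the other scalings, the minimum count of 50, DESeq2, the replicate block and the fit on all rows; it was 6 with no filter, 0 to 2 leaving out 1 library, and 15 without antisense library 3 and sense library 1, an alternative chosen after seeing the data. Seed families, 0 in the reported fit, gave 3 with library totals alone, 6 with no filter, 5 with the replicate block, 0 to 2 leaving out 1 library and 10 without those libraries. There the seed AUUGCAC, of miR-92b-3p, turned from 0.10 to -0.32 (edgeR adjusted p = 0.0392; -0.20 to 0.20 leaving out 1 library), and the cause was not tested. Transcript rows, 16 as reported, gave 487 with no filter, 124 with DESeq2, 1 with the replicate block, 1 to 18 leaving out 1 library and 5 without those libraries; 16 to 23 passed under the other settings. Pairing by number is not stated in the labels and was not assumed, so the block is a check only. The difference in miRNA share stayed below 0 (-0.80 to -0.17 leaving out 1 library). Of the 35 named miRNAs, 17 changed sign under at least 1 of the alternatives while passing in neither fit, and 7 of the 10 most abundant seed families changed sign, AUUGCAC among them, so differences near 0 have no settled direction. A library left out leaves 2 against 3, with the spread pooled. With 3 libraries a group, intervals of low miRNAs stay wide.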
